A study of Sus scrofa with 6 samples.

Results

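In porcine (Sus scrofa) intestinal epithelial cells, 2206 stretches of chromatin were open in every library of the series and were narrow. They were chosen by the widths of their peaks and by presence: peaks of the 6 libraries that overlapped by at least 1 bp were merged, a region had to hold a peak of all 6 libraries on a contig with more than 2 merged regions, and the median over libraries of its widest peak had to be at most 400 bp. The 2206 narrow regions are 4.32% of all 51099 merged regions and 18.0% of the 12238 regions that met the rule on presence and contigs. The other 10032 of these are called broader shared regions here. The series compared control cells with cells stimulated by deoxyshikonin, a naphthoquinone related to shikonin, in 3 libraries each, and the labels describe the source of all of them as intestine epithelium. The sample labels call the second group drug stimulated, and the series title names the drug. All libraries were amplified and selected for short fragments, whose part in the widths was not tested. The sources used here give no cell line, genotype, age, dose or duration. Nothing in the labels says if the replicates of a group were grown apart, so p-values rest on how far these libraries vary, perhaps only technically. The lists carry positions and no genes, so the labelled cell type could not be checked against marker genes.

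Accessible chromatin marks DNA from which nucleosomes are shifted or missing, such as promoters, enhancers and sites held by architectural proteins. ATAC-seq, which sequences DNA cut by a transposase, finds it because that enzyme, Tn5, inserts adapters mainly where DNA is exposed. A narrow peak is what a single short exposed stretch between nucleosomes gives, while a wide peak can join several such stretches, as at active promoters. In the intestinal epithelium, which forms the barrier between gut content and tissue, open regions hold many of the elements that keep absorptive and secretory genes active. In a culture of many cells, a higher peak from more cells with the region open and one from more frequent cutting in each cell cannot be told apart.

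The peak lists held 17169 to 25888 peaks in the controls and 33295 to 39281 under deoxyshikonin. Depth, given as the library's genome-wide mean tag pileup solved from the lists, was 1.89 to 2.57 in the controls and 1.46 to 2.06 under deoxyshikonin. Control replicate 2 stood apart by low peaks, with a median narrow-region summit of 10.8 times its library background against 13.6 to 16.4 times in the other 5 libraries. Deoxyshikonin replicate 2 was the shallowest library. Positions are given on LUXX contigs, counted from 1. The sources used here name no genome build, and the positions carry no gene, exon or promoter annotation.

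Narrow regions were shorter than the peaks of the other shared regions, whose median width was 633 bp. Their median width over libraries was 340 bp at the midpoint of the class, with quartiles of 306 and 372 bp and a minimum of 209 bp. By library, control replicates 1 to 3 had median widths of 318, 271 and 364 bp, and deoxyshikonin replicates 1 to 3 had 355, 337 and 363 bp. Control replicate 2 had the shortest peaks of the 6. Of the 2206 regions, 514 (23.3%) were at most 400 bp wide in all 6 libraries, 581 in 5, 704 in 4 and 407 in 3. Widths chose the regions and were not tested.

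At the limit of the rule the classes ran into each other. A total of 16 members had a median width of exactly 400 bp and 18 shared regions lay above it by at most 1 bp. Among members the region at LUXX01101888.1, 1607227 to 1607658, was 402, 408 and 408 bp wide in control replicates 1 to 3 and 398, 292 and 371 bp in deoxyshikonin replicates 1 to 3. The region at LUXX01096074.1, 5429966 to 5430548, was 416, 384 and 440 bp wide in the controls and 376, 371 and 560 bp under deoxyshikonin. Both straddled the limit between libraries. Just outside it, the region at LUXX01055817.1, 850147 to 850849, had widths of 435, 341 and 366 bp in the controls, against 643, 362 and 555 bp under deoxyshikonin. The region at LUXX01091778.1, 2571964 to 2572547, had 476, 257 and 570 bp in the controls, against 298, 325 and 581 bp under deoxyshikonin. Their medians were 400.5 bp each, and the spread between libraries was far larger than the distance to the limit.

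Peak height was the number of tags piled up at the summit divided by the library's background, taken at the highest peak of each library in the region. At narrow regions the median summit held 26, 23 and 35 tags in control replicates 1 to 3 and 28, 24 and 31 in deoxyshikonin replicates 1 to 3. Counting alone then gives an SD of 16.9% to 20.9% of such a summit, against 14.6% to 18.3% at the median of the broader shared regions. The median height was 13.8, 10.8 and 13.6 in the controls, against 13.6, 16.4 and 15.8 under deoxyshikonin. The ranges of the groups overlapped, and the mean of these medians was 12.7 ± 1.69 in the controls and 15.3 ± 1.48 under deoxyshikonin (SD, n = 3 each, exact permutation p = 0.3, two-sided, smallest possible 0.1). In all 6 libraries narrow regions stood lower than the broader ones, at 0.718 to 0.767 of their median height.

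**Figure D1:**
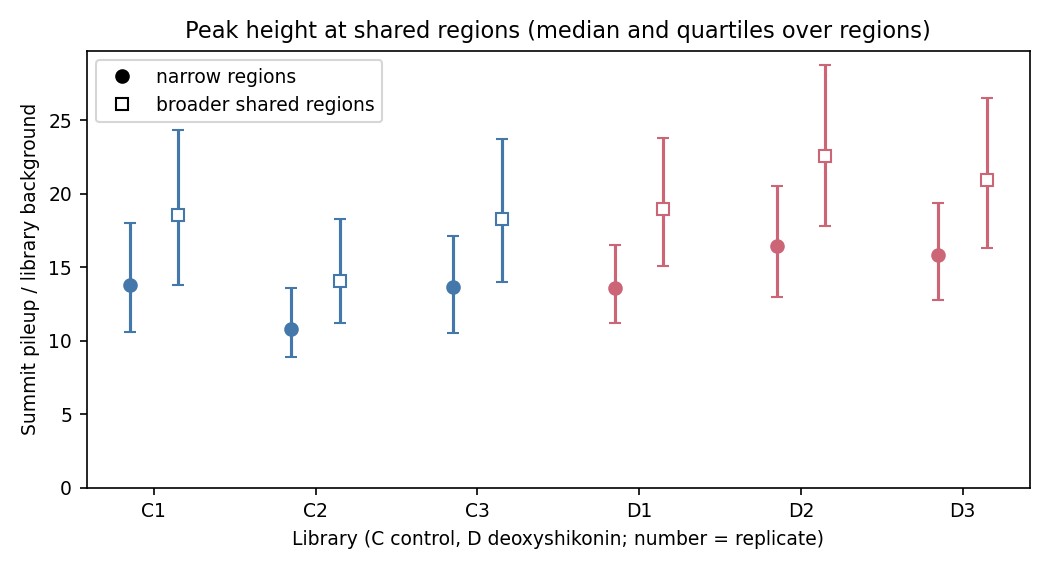
Median peak height (summit tags over library background, vertical axis from 0) in each library on the horizontal axis, for narrow regions (filled circles) and broader shared regions (open squares), with bars from the lower to the upper quartile over regions. Narrow regions sit below broader ones in all 6 libraries, and control replicate 2 is lowest in both classes.

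The gap between narrow and broader regions did not separate the treatments. On the log2 scale the median of narrow regions lay below that of broader regions by a difference of −0.43, −0.38 and −0.43 in control replicates 1 to 3 and of −0.48, −0.46 and −0.40 in deoxyshikonin replicates 1 to 3. The mean gap was −0.41 ± 0.0253 in the controls and −0.45 ± 0.0389 under deoxyshikonin (SD, n = 3 each, exact permutation p = 0.3, two-sided). Deoxyshikonin replicate 3 lay inside the control range. Between libraries, log2 heights of narrow regions correlated at 0.772 to 0.823 within a treatment and at 0.628 to 0.659 across treatments, over 2206 regions that share libraries and depth. For the 10032 broader regions these were 0.856 to 0.879 and 0.745 to 0.783. The median SD of a narrow region between the 3 libraries of a group was 0.19 in the controls and 0.18 under deoxyshikonin on the log2 scale, and 0.16 and 0.15 for a broader region.

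The deposited strength values gave the same order of the classes. Heights were solved from these values, so this is no separate support. Widths chose the classes, and their part in the order was not tested. The authors' fold enrichment had a median of 5.60, 4.84 and 5.68 at narrow regions in control replicates 1 to 3 and of 5.29, 5.69 and 5.93 in deoxyshikonin replicates 1 to 3. At broader shared regions the library medians ran from 5.75 to 7.09. Within its own list, the median narrow-region peak stood between the 37.1 and the 67.3 percentile of −log10 q, and the median broader one between the 63.9 and the 83.5 percentile. The weakest of the 6 calls of a narrow region had a −log10 q below 5 in 502 regions (22.8%), against 6.26% of broader regions. Control replicate 2 gave the weakest call in 967 narrow regions (43.8%) and deoxyshikonin replicate 2 in 431. With control replicate 2 left out, the same rule on 5 libraries gave 3351 narrow regions. Leaving out any other library gave 2334 to 2668.

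Narrow regions changed height in both directions under deoxyshikonin, more of them downward. Each library was centred on its median height over all 12238 shared regions and all of these were tested with limma at a Benjamini-Hochberg adjusted p of 0.05 (n = 3 libraries in each group). Of the 2206 narrow regions, 111 (5.03%) were higher under deoxyshikonin, where 6.42% of all shared regions were, and 194 (8.79%) were lower, where 6.0% of all shared regions were. The remaining 1901 did not pass the test. In this fit the SE followed mean height, and regions of the same mean height shared the same SE. Each SE and limma p therefore rests on the spread usual at that height. The region's own spread between replicates hardly enters. Broader shared regions were called higher in 675 cases (6.73%) and lower in 540 (5.38%). The median change over all narrow regions was −0.08 on the log2 scale, with 1327 (60.2%) below 0, against −0.02 over all shared regions, of which 54.0% were below 0. No test of the difference in these shares between the classes was made.

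The balance of higher and lower calls rested on the scaling, and on the width limit, with 314 higher and 325 lower at 500 bp. Before centring, the median height of all shared regions was 0.29 higher on the log2 scale under deoxyshikonin. Scaled by depth alone, 288 narrow regions were called higher, against 13.1% of all shared regions, and 9 lower, against 0.212%. That scaling shifts every change up by the same 0.29, and the smallest change among the 194 lower regions was −0.345. All 194 therefore stayed below 0 by arithmetic. Their median there was −0.27, and 9 of them passed the test. With the authors' fold enrichment over the local background as the height, 54 narrow regions were called higher, where 1.63% of all shared regions were, and 58 lower, where 1.76% of all shared regions were. There 109 of the 111 higher and 188 of the 194 lower regions kept their direction.

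Single libraries also moved these counts. Without control replicate 3, 68 narrow regions were higher, beside 4.42% of all shared regions, and without deoxyshikonin replicate 3 the count was 73, beside 4.80%. Without control replicate 2, 122 were lower, beside 4.13% of all shared regions, and without deoxyshikonin replicate 1 the count was 127, beside 4.36%. Each of these fits held 5 libraries. The number of tags moved with the calls as well: of narrow regions with a mean of at most 20 tags 4.69% were called, and of those with over 40 tags 27.8%. Of broader shared regions 6.56% and 11.0% were called in these classes, and 13.5% and 12.9% in the classes between. Its part in the result was not tested.

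Among the called regions, changes in height came with changes in the width of the peaks, which the rule had used and which are described only. Higher narrow regions had a median change of 0.63 on the log2 scale, or 1.55-fold, and a largest change of 1.11. Lower ones had a median of −0.56, or 0.679-fold, and a largest change of −1.11. Higher regions had median widths of 303, 250 and 300 bp in control replicates 1 to 3, against 418, 384 and 406 bp in deoxyshikonin replicates 1 to 3. Lower regions had 360, 310 and 415 bp in the controls, against 320, 293 and 331 bp under deoxyshikonin. The widths of the groups did not overlap among higher regions and overlapped among lower ones. The median height relative to the library median was 1.16 to 1.20 for lower and 0.578 to 0.655 for higher regions in the controls, and 0.742 to 0.795 for lower and 0.946 to 1.03 for higher regions under deoxyshikonin. This order follows from sorting regions by the difference between the groups. Over all 6 libraries the median was 0.949 for lower, 0.767 for higher and 0.761 for the remaining narrow regions.

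**Figure D2:**
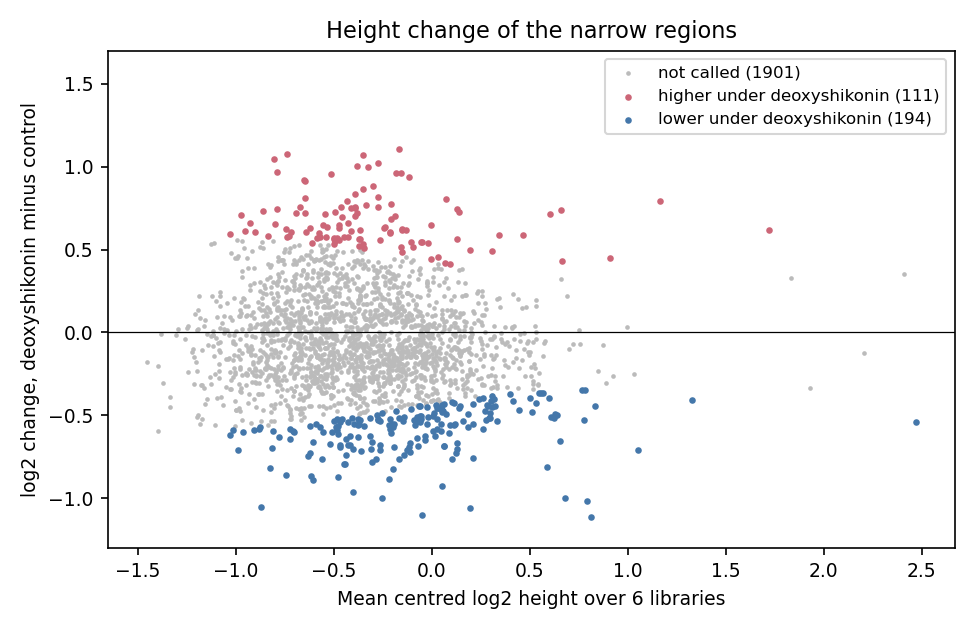
Change in centred log2 height (deoxyshikonin minus control, vertical axis) against mean centred log2 height over the 6 libraries (horizontal axis) for each of the 2206 narrow regions, with 111 called higher in red and 194 called lower in blue. Lower calls take a growing share of regions towards the right, where peaks are tall.

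The next values describe the 6 narrow regions with the largest increases among called regions whose groups did not overlap, a condition that 269 of the 305 called regions met. No such count is given for other shared regions, so it is not read as a trait of narrow ones. That condition and the order by size fix that the groups stand apart in each of the 6. Values below are heights relative to the library median over all shared regions. At LUXX01062172.1, 5143522 to 5144211, the relative height was 0.576, 0.759 and 0.511 in control replicates 1 to 3 and 1.22, 1.52 and 1.21 in deoxyshikonin replicates 1 to 3. The change was 1.11 on the log2 scale (SE 0.170, limma adjusted p = 1.85e-08), and the peak was 220 to 264 bp wide in the controls and 468 to 676 bp under deoxyshikonin. The lowest deoxyshikonin library there was 1.21 and the highest control 0.759. At LUXX01078624.1, 727690 to 728348, the relative height was 0.364, 0.483 and 0.400 in the controls, against 0.919, 0.871 and 0.821 under deoxyshikonin, a change of 1.08 (SE 0.202, limma adjusted p = 8.95e-06). The control summits there rested on 12 to 18 tags.

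At LUXX01063348.1, 2294861 to 2295237, the relative height was 0.455, 0.655 and 0.533 in the controls, against 1.19, 1.10 and 1.13 under deoxyshikonin (log2 change 1.07, limma adjusted p = 6.39e-07). This region was isolated, with the nearest other merged region 121869 bp away. At LUXX01095311.1, 4217665 to 4218152, the relative height was 0.394, 0.552 and 0.289 in the controls, against 0.784, 0.839 and 0.846 under deoxyshikonin (log2 change 1.05, limma adjusted p = 2.07e-05). At LUXX01001765.1, 182500 to 183039, it was 0.667, 0.552 and 0.533 in the controls, against 1.14, 1.13 and 1.28 under deoxyshikonin (log2 change 1.02, limma adjusted p = 1.11e-06). At LUXX01061323.1, 3078088 to 3078609, it was 0.576, 0.517 and 0.533 in the controls, against 1.05, 1.16 and 1.05 under deoxyshikonin (log2 change 1.01, limma adjusted p = 4.86e-06). All 6 also passed with fold enrichment as the height (largest limma adjusted p 0.00666). Scaling by depth alone adds the same 0.29 to every log2 change, so increases can only grow. All 6, like all 111 higher regions, passed there (largest limma adjusted p of the 6 1.85e-06), which is no further support.

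The 6 narrow regions with the largest decreases, chosen in the same way, included tall peaks, and 3 of them lay on contigs with at most 6 merged regions. At LUXX01030217.1, 3259649 to 3259994, the relative height was 2.73, 2.86 and 2.20 in control replicates 1 to 3 and 1.14, 1.16 and 1.28 in deoxyshikonin replicates 1 to 3. The change was −1.11 on the log2 scale (SE 0.122, limma adjusted p = 5.35e-16), from 83 to 99 tags at the summit in the controls to 36 to 50 under deoxyshikonin. Its peak was 332 to 346 bp wide in the controls and 293 to 326 bp under deoxyshikonin, and the 6 summits lay within 7 bp. The nearest other merged region was 224066 bp away. At LUXX01069198.1, 2637672 to 2638282, the relative height was 1.76, 1.55 and 1.64 in the controls, against 0.784, 0.774 and 0.821 under deoxyshikonin (log2 change −1.06, limma adjusted p = 1.79e-10). At LUXX01035852.1, 1468613 to 1469124, it was 1.06, 0.690 and 0.667 in the controls, against 0.432, 0.258 and 0.487 under deoxyshikonin (log2 change −1.05, limma adjusted p = 2.33e-05). The second deoxyshikonin library held 8 tags at that summit, and no narrow-region summit of any library held fewer.

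The other three lay on region-poor contigs. At LUXX01019263.1, 679 to 1038, the relative height was 1.27, 1.86 and 1.20 in the controls, against 0.514, 0.645 and 0.872 under deoxyshikonin (log2 change −1.10, limma adjusted p = 2.56e-09). At LUXX01033675.1, 45163 to 45425, it was 2.45, 3.07 and 1.98 in the controls, against 0.973, 1.35 and 1.36 under deoxyshikonin (log2 change −1.02, limma adjusted p = 1.89e-13). At LUXX01018683.1, 9575 to 9944, it was 2.15, 2.62 and 2.07 in the controls, against 0.919, 1.16 and 1.36 under deoxyshikonin (log2 change −1.0, limma adjusted p = 1.43e-12). All 6 decreased regions passed when scaled by depth alone (largest limma adjusted p 0.0102). With fold enrichment as the height, the regions on LUXX01030217.1 and LUXX01019263.1 passed (limma adjusted p = 0.0258 and 0.000504), and the other 4 did not, at 0.0562 to 0.450.

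**Figure D3:**
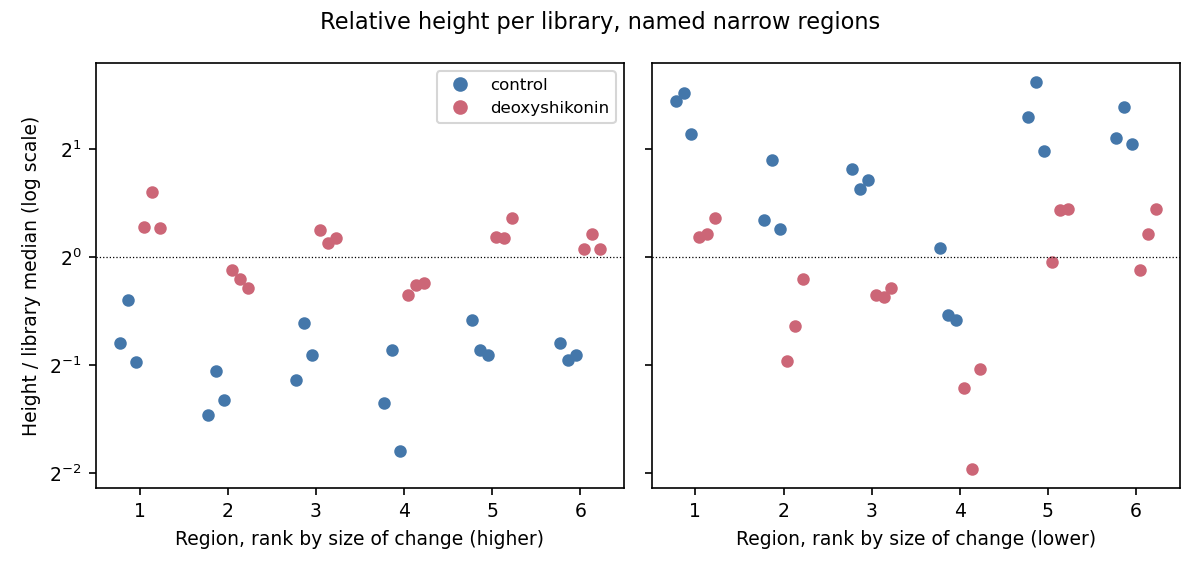
Height relative to the library median (vertical axis, log scale) in the 3 control libraries (blue) and the 3 deoxyshikonin libraries (red) at the 6 narrow regions with the largest increases (left) and decreases (right), in order of size. The 12 regions were chosen for groups that do not overlap, and the control heights run from 0.289 to 0.759 on the left and from 0.667 to 3.07 on the right.

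Tall narrow regions were called more often than tall broader ones in both directions, and mostly as lower. Among the 64 narrow regions whose mean relative height was over 1.41, 23 (35.9%) were lower under deoxyshikonin and 6 (9.38%) higher. Of the 1943 broader shared regions above the same height, 136 (7.0%) were lower and 43 (2.21%) higher. Of all shared regions, 6.0% were lower and 6.42% higher. The share of lower calls among narrow regions was 1.92% in the lowest class of height, then 3.68%, 8.79% and 17.2% in the next classes, while among broader regions it stayed between 3.33% and 7.0%. These classes were set after the data had been seen, and no test of the difference was made.

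Several measured features moved with the tall narrow regions. Their local background was a median of 4.79 times the library background, against 3.50 times at tall broader regions. Contigs with at most 10 merged regions held 12 of the 64, of which 9 were lower, and 86 of the tall broader regions, of which 25 were lower. On the remaining contigs 14 of 52 (26.9%) were lower, against 5.98% of tall broader regions there. Control replicate 2 was the highest of the 3 controls in 36 of the 64 (56.3%), against 31.0% of tall broader regions and 41.8% of all narrow regions. Without control replicate 2, 12 of the 64 were lower, against 4.68% of tall broader regions, and without deoxyshikonin replicate 1 the count was 14, against 4.94%. Scaled by depth alone, 3 were lower, against 0.257% of tall broader regions, and 9 higher, with a median change of 0.03 on the log2 scale against 0.23 at tall broader regions. Fold enrichment as the height gave 2 lower, against 1.24% of tall broader regions. It gave 2 higher, against 3 of 1943 tall broader regions and 1.63% of all shared regions. With limma without a trend in the variance 10 were lower, against 2.73% of tall broader regions and 4.49% of all shared regions. The part of the local background, the contigs and control replicate 2 in the lower calls was not tested.

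The tallest narrow regions behaved differently from each other. The region at the very start of a contig, LUXX01092595.1, 1 to 570, had relative heights of 6.55, 8.28 and 5.51 in the controls, against 4.35, 4.77 and 4.69 under deoxyshikonin (log2 change −0.54, limma adjusted p = 0.00679). Scaled by depth alone its change was −0.25 (limma adjusted p = 0.402). At LUXX01090087.1, 170952 to 171329, the relative height was 4.58, 5.97 and 3.8 in the controls, against 5.59, 7.03 and 5.51 under deoxyshikonin, which overlap (log2 change 0.35, limma adjusted p = 0.1). Scaled by depth alone this region passed (log2 change 0.64, limma adjusted p = 0.0145). At LUXX01101935.1, 274665 to 275054, it was 4.82, 5.86 and 3.96 in the controls, against 3.89, 4.90 and 4.51 under deoxyshikonin (limma adjusted p = 0.632). Control replicate 2 was the highest control in all 3, as in most tall narrow regions. At the other end, the lowest narrow region, LUXX01043881.1, 107756 to 108246, had relative heights of 0.333 to 0.424 in the controls and 0.297 to 0.385 under deoxyshikonin, from summits of 11 to 15 tags (limma adjusted p = 0.671). The next, LUXX01076736.1, 939830 to 940432, had 0.394, 0.552 and 0.467 in the controls, against 0.297, 0.323 and 0.308 under deoxyshikonin. These groups did not overlap, yet the limma adjusted p was 0.0503. The third, LUXX01004739.1, 113068 to 113737, overlapped, with 0.356 to 0.483 and 0.290 to 0.459 (limma adjusted p = 0.614).

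**Figure D4:**
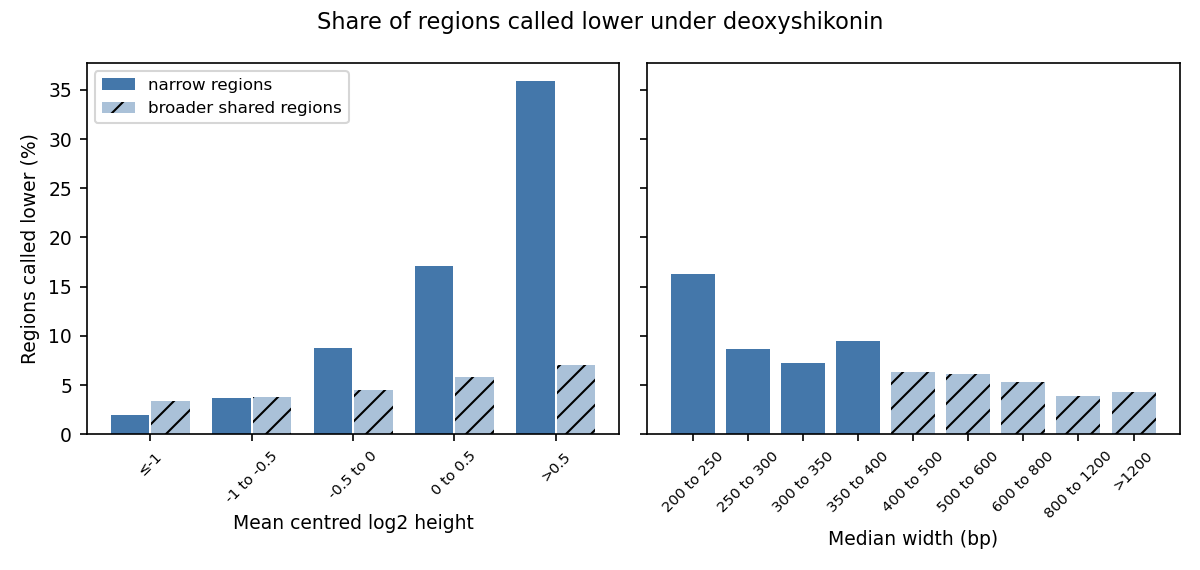
Percentage of regions called lower under deoxyshikonin (vertical axis) by class of mean centred log2 height (left) and of median width (right), for narrow regions (solid bars) and broader shared regions (hatched bars). The share climbs to 35.9% for tall narrow regions and is 16.3% for regions up to 250 bp wide, while no broader class of height passes 7.0%. Higher calls, not shown, took 9.38% of tall narrow and 2.21% of tall broader regions.

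The narrowest regions held more lower than higher calls. Of the 80 with a median width of at most 250 bp, 13 (16.3%) were lower and 0 higher under deoxyshikonin (limma adjusted p below 0.05), where 6.0% and 6.42% of all shared regions were. With limma without a trend 8 were lower, where 4.49% of all shared regions were, and 0 higher, where 5.75% were. At an unadjusted p of 0.05 in limma 21 of the 80 were lower and 1 higher. In either direction, 615 of the 2206 narrow and 3054 of all 12238 shared regions passed that limit. The share lower was 8.72% from 250 to 300 bp, 7.24% to 350 bp and 9.50% to 400 bp, and the share higher was 4.36%, 4.96% and 5.83%. Without control replicate 2, 6 of the 80 were lower, where 4.13% of all shared regions were. Scaled by depth alone, 1 was lower and 3 were higher, where 0.212% and 13.1% of all shared regions were. The narrowest region of the class, LUXX01031818.1, 2478017 to 2478534, was 271, 200 and 477 bp wide in the controls and 200, 217 and 201 bp under deoxyshikonin. Its relative height was 1.24, 1.28 and 1.22 in the controls, against 0.811, 0.839 and 0.846 under deoxyshikonin (log2 change −0.58, limma adjusted p = 0.00363). That region did not pass when scaled by depth alone (limma adjusted p = 0.365) or with fold enrichment as the height (limma adjusted p = 0.109). The next in width did not pass with centred heights. LUXX01026873.1, 1001539 to 1001903, had relative heights of 0.455 to 0.552 and 0.452 to 0.622 (limma adjusted p = 0.814). Nor did the third: at LUXX01096747.1, 1348261 to 1348584, they were 0.545 to 0.733 and 0.613 to 0.769 (limma adjusted p = 0.955).

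In most narrow regions the summits of the 6 libraries lay within 100 bp, and in 88.3% within 200 bp. The distance between the lowest and the highest of the 6 summit positions had a median of 86 bp at narrow regions, with quartiles of 54 and 136 bp, and was at most 100 bp in 59.7% of them. At broader shared regions the median was 129 bp, and 39.0% were within 100 bp. A narrower peak leaves less room for its summit. Among narrow regions the median spread was 162 bp at a mean of at most 20 tags and 68.5 bp above 40 tags, so the deeper summits were placed more closely. Broader shared regions showed the same order, with 295 and 104 bp in these classes. Within the controls the median spread was 49 bp, and within the deoxyshikonin libraries it was 55 bp.

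Few narrow regions had summits that separated the treatments. In 237 (10.7%), all 3 summits of a treatment lay on the same side of all 3 of the other, against 13.3% of all shared regions. A random order of 3 against 3 summits separates the groups in a share of 0.1 of the 20 arrangements. The count is therefore not read as a trait of narrow regions. Of the 305 narrow regions called higher or lower, 31 (10.2%) met this criterion. Among broader shared regions, 212 of the 1215 called (17.4%) met it, against 13.9% of all broader ones. The median distance between the middle summits of the groups was 18 bp. When a library was left out, 429 to 474 regions met the criterion, which fewer summits then have to satisfy and random order meets more often. No share over all shared regions is given for these counts.

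**Figure D5:**
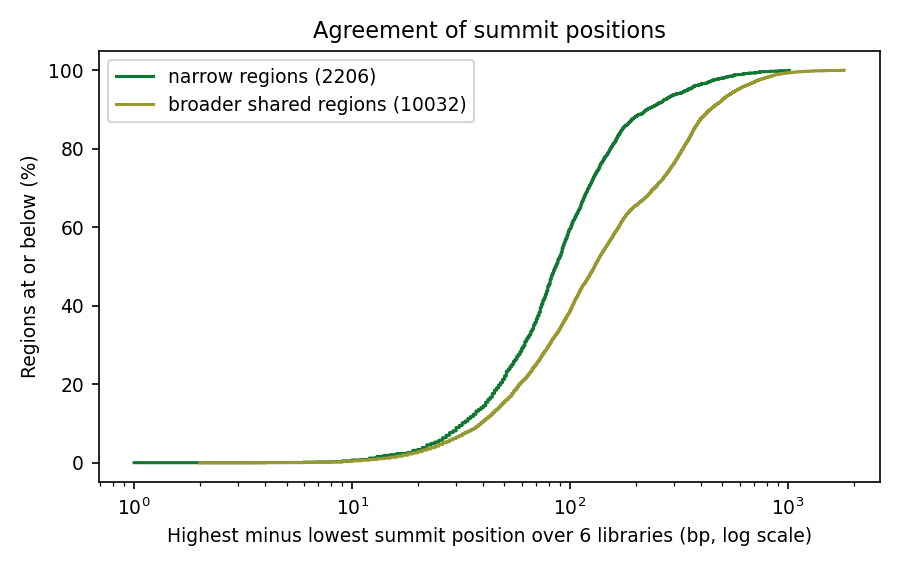
Cumulative percentage of regions (vertical axis) by the distance between the lowest and highest summit over 6 libraries (horizontal axis, bp, log scale), for narrow and broader shared regions. At 100 bp the curve of narrow regions stands at 59.7% and that of broader regions at 39.0%.

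The extremes showed what this measure holds. At LUXX01090087.1, 170952 to 171329, the 6 summits lay within 1 bp. At LUXX01065468.1, 79742 to 80092, they lay within 4 bp, and the relative height there was 2.64, 3.41 and 2.09 in the controls, against 3.86, 4.77 and 3.69 under deoxyshikonin (log2 change 0.62, limma adjusted p = 5.88e-05). With fold enrichment as the height this region did not pass (limma adjusted p = 0.268). The widest spreads exceeded 1 kb. At LUXX01011524.1, 1458339 to 1459648, the highest summit lay 1116, 337 and 301 bp from the region's start in control replicates 1 to 3 and 1146, 389 and 133 bp from it in deoxyshikonin replicates 1 to 3, in no order of treatment. At LUXX01018167.1, 481479 to 482890, it lay 105, 138 and 133 bp from the start in the controls and 1117, 1107 and 1023 bp from it under deoxyshikonin. The highest summit thus stood at opposite ends of that region in the 2 groups, with relative heights of 1.33, 1.66 and 1.20 in the controls, against 1.16, 0.935 and 0.744 under deoxyshikonin (log2 change −0.57, limma adjusted p = 0.00205). That change compares different places in the region, not the height at the same place. It passed with fold enrichment as the height (limma adjusted p = 0.0129) and did not when scaled by depth alone (limma adjusted p = 0.380).

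The median distance to the next region was shorter for narrow than for broader regions, and this difference was not tested. The nearest other merged region lay a median of 6197 bp from a narrow region, against 10319 bp from a broader one, and within 1 kb in 431 narrow regions (19.5%) and 10.9% of broader ones. Merging joins overlapping peaks into a wider region, so neighbours that touch are not counted in either class. The nearest region was a broader shared one in 23.2% of narrow regions, another narrow one in 5.80%, and one present in all 3 deoxyshikonin libraries and no control in 9.61%. For broader regions these shares were 24.3%, 5.82% and 9.60%. Where the nearest region lay within 1 kb, it was a broader one in 16.7% of 431 narrow and in 11.6% of 1096 broader regions.

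Called narrow regions were set beside their nearest broader shared region where it lay within 10 kb. Of the 41 lower narrow regions with a broader shared region within 10 kb, that neighbour was lower in 14 (34.1%) and higher in 2, where 5.38% and 6.73% of all broader regions were. Of the 20 higher narrow regions with such a neighbour, it was higher in 5 and lower in 2. The median change of these neighbours was −0.19 on the log2 scale beside lower and 0.0056 beside higher narrow regions, and −0.05 beside those not called. Changes of narrow regions and of their nearest broader region correlated at a Pearson r of 0.381 within 2 kb (n = 114) and of 0.293 from 2 to 5 kb (n = 119). The correlation was 0.193 from 5 to 10 kb (n = 233), 0.0651 from 10 to 50 kb (n = 834) and 0.0139 beyond (n = 852). These are correlations across pairs of regions that share all 6 libraries, and a broader region can serve several narrow ones. A region found in all 3 deoxyshikonin libraries and no control lay within 10 kb of 10 of the 111 higher (9.01%), 14 of the 194 lower (7.22%) and 154 of the other 1901 narrow regions (8.10%).

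Narrow regions were spread over 747 contigs. On the 172 contigs with at least 20 shared regions they made up a median of 18.9% of these, from 0% to 45%. The highest shares were 9 of 20 on LUXX01015729.1 and 11 of 25 on LUXX01012514.1. LUXX01096074.1 held the most, 32 of 164. Of these 32, 4 were lower (limma adjusted p below 0.05), where 8.79% of all narrow and 6.0% of all shared regions were. No share of lower calls among the 164 is given. Higher regions lay on 101 contigs and lower ones on 154. On contigs with 3 to 5 merged regions, 11 of 36 narrow regions were lower and 2 higher, and 29 of 149 broader ones were lower and 11 higher.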

How the data were processed

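The 6 ATAC-seq libraries, 3 control and 3 deoxyshikonin, were grouped and numbered by their titles. The submitters' processing notes name MACS2 2.1.0, Bowtie2 2.4.2, Trim Galore 0.6.6, deepTools and bcl2fastq 2.17. The sources used here give neither settings nor genome build. The authors deposited 1 peak list per library with a fold enrichment (a ratio), a −log10 p, a −log10 q, a whole-number score of 10 times the −log10 q, and the summit. Pileup and background at each summit were solved from fold enrichment and p, and matched the deposited −log10 p within a relative error of 7.22e-06. The lowest background is the depth measure, total reads being unknown, and tag precision covers counting error only because duplicates are not independent molecules. Log2 heights were centred per library and tested with limma 3.58.1 (trend, Benjamini-Hochberg) over 12238 regions. Library values were compared by exact permutation over 20 arrangements. Solver and limma were tested on simulated data. Named regions are the 6 largest called changes without overlap each way, the 3 tallest, lowest and narrowest, 2 on each side of the width limit, and 2 each of tightest and widest summits. Members and lists were chosen with earlier results of these data known. Software was R 4.3.3, scipy 1.17.1, pandas 2.3.3, numpy 2.4.6, matplotlib 3.10.9 and Python 3.11.15. No sequence of these contigs was used.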

Additional observations from a re-analysis of the deposited data

How the results depend on the processing

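The rule applied to 5 libraries and the settings of tall regions were chosen after seeing the data. The number of narrow regions (2206) was 493 with a limit of 300 bp and 4273 with 500 bp, and 2334 to 3351 when each library was left out. Higher and lower narrow regions (111 and 194) numbered 18 and 49 of 493 with 300 bp and 314 and 325 of 4273 with 500 bp. The class itself shrinks or grows, while 6.42% and 6.0% of all shared regions stayed higher and lower. The excess of lower over higher calls was thus small with 500 bp. Depth scaling without centring gave 288 and 9, where 13.1% and 0.212% of all shared regions were called. Fold enrichment as the height gave 54 and 58, where 1.63% and 1.76% were called. The cause of the latter was not tested. When each library was left out, narrow regions called ran from 68 to 106 higher and from 122 to 150 lower. Of all shared regions, 3.83% to 5.82% were then higher and 4.07% to 4.45% lower. With no limit on regions per contig, 343 of 2541 were lower, where 7.71% of all 13209 shared regions were, and 173 of the 194 were among them. The cause was not tested. With a replicate block, 107 were higher and 177 lower, all of them among the calls without it. Of all shared regions, 5.97% and 5.51% were higher and lower with the block. Whether the numbers pair the libraries was not tested. Over all shared regions, same-numbered libraries deviated from their group means with correlations of −0.0259 to 0.0241, and the others with −0.0613 to 0.0530. Over narrow regions these were −0.0112 to 0.0630 and −0.0916 to 0.0530. In both sets control replicate 3 correlated best with its own number, and control replicates 1 and 2 did not. With the block, the differences in median height between groups had the same size by construction, and the smallest p that 3 pairs allow is 0.25. Those differences kept their sign in all settings run. Regions with separated summits (237) numbered 43 with 300 bp and 497 with 500 bp, and 429 to 474 when each library was left out. The median summit spread (86 bp) was 78 bp with 300 bp, 98 bp with 500 bp, 77 bp for peaks with a −log10 q of at least 5, and 76 to 79 bp when each library was left out, where fewer summits are compared. Leaving out a library while keeping the members could not change their number. Depth limits which peaks each list holds, and regions missed in any library are outside the class.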
